A study of Homo sapiens with 16 samples.

Results

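The genes described are 10 innate immune sensors and their adaptor: the Toll-like receptors *TLR1*, *TLR2*, *TLR3*, *TLR4*, *TLR6* and *TLR9*, the adaptor *MYD88*, and the RNA sensors *DDX58* (RIG-I), *IFIH1* (MDA5) and *EIF2AK2* (PKR). They were chosen by name and taken from the 60357 genes listed in the in vitro count tables, in which all 10 were found. RNA-seq had been done on Kasumi-1 and SKNO-1 cells, established t(8;21)-positive acute myeloid leukaemia (AML) lines that carry the *RUNX1/ETO* fusion gene. All cells had been exposed for 24 h to lipid nanoparticles (LNPs) at 2 µg/ml and were harvested on day 3. The LNPs held either siRE-mod, a chemically modified siRNA against the fusion transcript, or siMM-mod, its modified mismatch control, with 3 libraries for each siRNA in each line. SKNO-1 medium contained GM-CSF and Kasumi-1 medium did not, and no group went without LNPs, so an effect common to both siRNAs or to the particle cannot be read from these groups.

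Toll-like receptors are membrane proteins that recognise microbial molecules. TLR2, alone or paired with TLR1 or TLR6, binds bacterial lipoproteins and TLR4 binds lipopolysaccharide, while TLR3 and TLR9 sit in endosomes and bind double-stranded RNA and unmethylated CpG DNA. Most of these receptors signal through MYD88 to NF-κB. RIG-I and MDA5 are cytosolic helicases that bind viral RNA and induce interferon through MAVS, and PKR is a kinase that halts translation when bound to double-stranded RNA. The genes for the RNA sensors are themselves induced by interferon, and several of these receptors can respond to synthetic RNA duplexes, which makes them a common readout in siRNA work.

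The labels did not order the libraries by the transcripts that the siRNA acts on. *CD34*, a surface protein of stem and progenitor cells, divided the 12 libraries into 6 with at least 117 normalised CPM (counts scaled to library size and TMM factor) and 6 with at most 0.627 CPM. These are called CD34-high and CD34-low below. Within each set, *RUNX1T1* (ETO), whose reads stand for the fusion transcript in such cells, divided the libraries 3 and 3. It was at least 297 against at most 127 CPM among the CD34-high libraries, and at least 159 against at most 44.4 CPM among the CD34-low ones. The CD34-high libraries with more *RUNX1T1* were those labelled Kasumi-1 siMM-mod replicate 1 and SKNO-1 siMM-mod replicates 1 and 2. The CD34-high libraries with less *RUNX1T1* were those labelled Kasumi-1 siMM-mod replicate 2, SKNO-1 siMM-mod replicate 3 and SKNO-1 siRE-mod replicate 1. The CD34-low libraries with more *RUNX1T1* were those labelled Kasumi-1 siMM-mod replicate 3, Kasumi-1 siRE-mod replicate 2 and SKNO-1 siRE-mod replicate 2. The CD34-low libraries with less *RUNX1T1* were those labelled Kasumi-1 siRE-mod replicates 1 and 3 and SKNO-1 siRE-mod replicate 3. Each of these sets of 3 thus mixed both line labels, and in each line 1 library stood on the other side of the *CD34* gap from the rest of its siRNA label. *IL5RA*, a cytokine receptor chain, was at most 0.179 CPM in the CD34-high libraries and between 36.3 and 68.0 CPM in the CD34-low ones. By their counts over all genes the 2 most alike of the 12 libraries carried opposite siRNA labels, SKNO-1 siMM-mod replicate 3 and SKNO-1 siRE-mod replicate 1, with a median chi-square per gene of 1.71, where counting noise alone gives 0.455. Some labels may be wrong, which was not tested, and every fold change by label below holds for the labels as given. Directions are therefore given between labels, and each library's value is given by *CD34* and *RUNX1T1* as well. These sets come from measured values, so they are described and not tested.

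**Figure D1:**
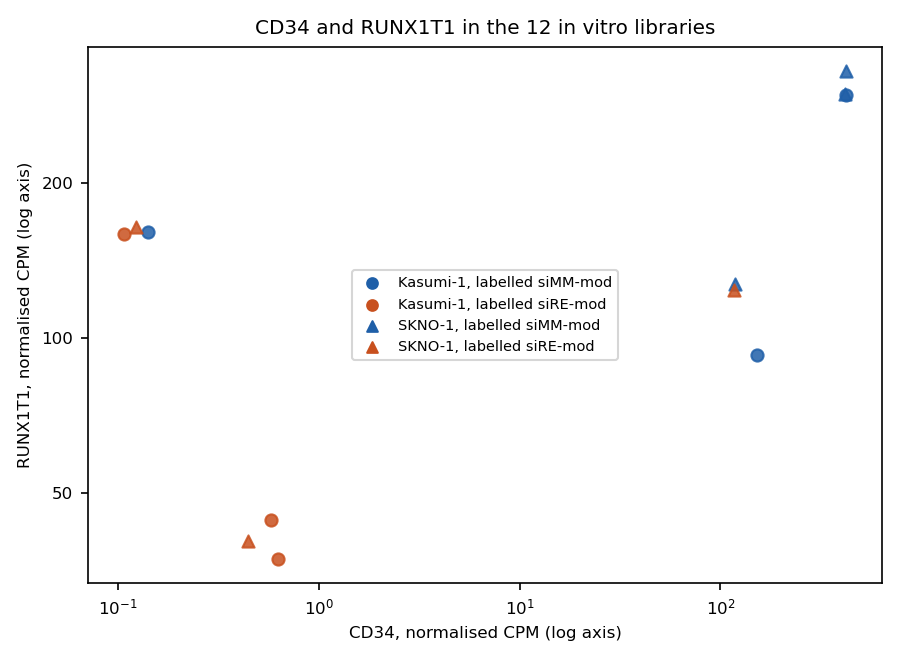
Normalised CPM of *CD34* (x, log axis) and *RUNX1T1* (y, log axis) in the 12 in vitro libraries, 1 point each, coloured by siRNA label and shaped by line label. The 6 CD34-high libraries lie at 117 CPM or more and the 6 CD34-low ones at 0.627 CPM or less, and each set has an upper and a lower group of 3 by *RUNX1T1*; the upper right group holds 3 points, 2 of which nearly coincide.

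Depth on genes was between 60559466 and 147990959 counts per library. Markers of other cell types were low. T cell markers summed to 0.0217 to 0.402 CPM and erythroid markers to 0.115 to 0.854 CPM. Stromal markers summed to 0.0745 to 1.24 CPM with *COL1A2* at 0. B cell markers reached the highest sum of these, with 0.941 to 3.12 CPM and *MS4A1* at 0. Mature monocyte markers (*CD14*, *FCGR3A*, *VCAN*) summed to 0.0867 to 0.177 CPM in CD34-high and 0.306 to 0.964 CPM in CD34-low libraries. *CD14* itself did not share this rise, with at most 0.0447 CPM in CD34-high and at most 0.0325 CPM in CD34-low libraries. The 6 markers of the leukaemia cells (*CD34*, *KIT*, *CD33*, *MPO*, *RUNX1T1*, *IL5RA*) summed to 12226 to 23776 CPM in CD34-high and 2089 to 6527 CPM in CD34-low libraries. Most of each sum was *MPO*, at 10437 to 22667 CPM and 1783 to 5750 CPM. *KIT* was lower in CD34-low libraries too, *CD33* overlapped (38.1 to 76.4 and 45.1 to 71.7 CPM) and *IL5RA* went the other way. *CD34* and *RUNX1T1* defined the sets, so the sum is not a separate measure of the leukaemia cells. The part of these markers in the values below was not tested. In bulk RNA, fewer cells of a type and less RNA per cell cannot be told apart. Nothing in the labels says that replicates were separate cultures, so p-values measure the spread between these libraries, which may be technical.

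Per length of transcript, *EIF2AK2* was the highest of the 10 genes, with a median of 9.65 FPKM (CPM per kilobase of exon) over the 12 libraries. *MYD88* followed with 5.45 FPKM, *IFIH1* with 4.08, *TLR2* with 2.86, *DDX58* with 1.96 and *TLR4* with 0.682 FPKM. *TLR6* had 0.135 FPKM, *TLR1* 0.0970, *TLR9* 0.0212 and *TLR3* 0.00692 FPKM. The ranges of all neighbours in this order overlapped over the 12 libraries. Within every library, though, *EIF2AK2* was above *MYD88*, *DDX58* above *TLR4* and *TLR1* above *TLR9*. The other neighbours changed order between libraries. Of the 10 genes, 7 passed the filter of 600 reads over the 12 libraries. *TLR1* (572 reads in all), *TLR3* (83 reads) and *TLR9* (100 reads) did not, and they are given mainly by their values.

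**Figure D2:**
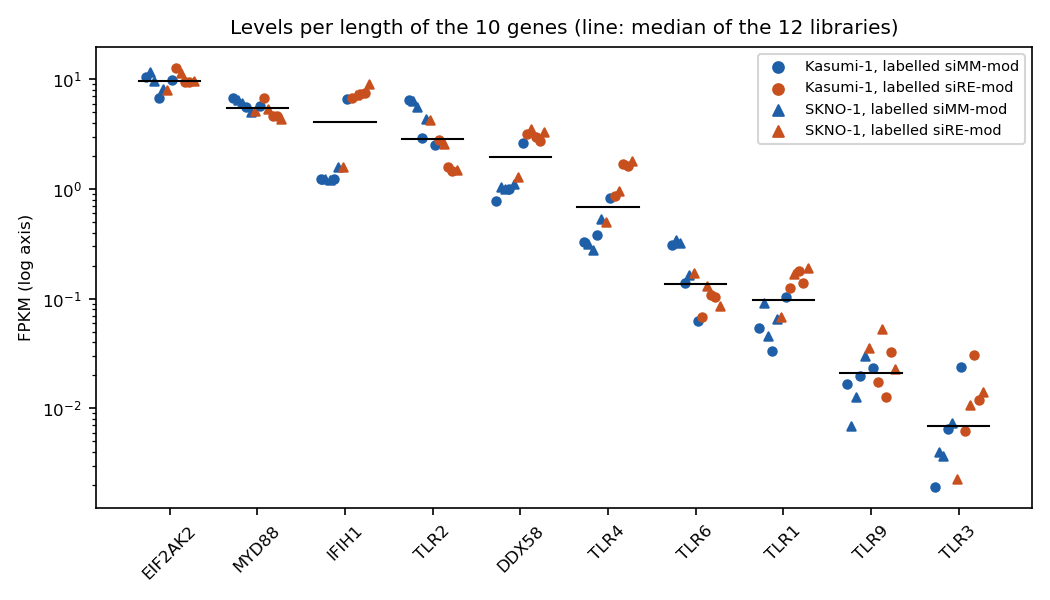
FPKM (y, log axis) of each of the 10 genes (x, ordered by the median) in the 12 libraries, with colour for the siRNA label, shape for the line label and a line at the median. *EIF2AK2* and *MYD88* have the narrowest ranges, while *IFIH1* and *DDX58* fall into 2 separate clusters of points.

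*TLR2*, on chr4:153684070-153705702 (GRCh38, as are all gene positions here, plus strand), was highest where both *CD34* and *RUNX1T1* were high. In the order of libraries listed above, its level was 36.0, 35.3 and 34.3 CPM in the CD34-high libraries with more *RUNX1T1* and 18.0, 21.5 and 21.8 CPM in those with less. It was 13.9, 13.3 and 13.3 CPM in the CD34-low libraries with more *RUNX1T1* and 6.96, 6.86 and 7.57 CPM in those with less. The 4 sets of 3 did not overlap at any point, and the whole range was 5.25-fold. Within both *CD34* sets the libraries with less *RUNX1T1* had less *TLR2*, with the nearest values 1.58-fold apart in CD34-high and 1.76-fold apart in CD34-low libraries.

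*TLR4*, on chr9:117704175-117724735 (plus strand), had the opposite order. It was 4.62, 4.44 and 4.29 CPM and then 5.92, 6.68 and 6.42 CPM in CD34-high libraries with more and with less *RUNX1T1*. In CD34-low libraries it was 11.9, 10.6 and 12.7 CPM and then 18.7, 19.4 and 23.0 CPM. These 4 sets did not overlap either, with gaps of 1.28-fold and 1.48-fold within the *CD34* sets and 1.58-fold between them. *TLR2* and *TLR4* were the 2 genes of the 7 whose libraries were divided both by *CD34* and, in each *CD34* set, by *RUNX1T1*. The share of all genes divided in this way was not computed, so the pattern cannot be called particular to these genes.

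*TLR6*, the partner of *TLR2* for diacylated lipoproteins (chr4:38823715-38856817, minus strand), was low throughout. It was 1.98, 2.23 and 2.28 CPM in CD34-high libraries with more *RUNX1T1* and 0.982, 0.941 and 1.01 CPM in those with less, 1.96-fold apart at the nearest values. In CD34-low libraries it was 0.401, 0.377 and 0.792 CPM with more and 0.554, 0.564 and 0.502 CPM with less *RUNX1T1*. The last 6 values overlapped between the *RUNX1T1* levels, and all of them lay below the CD34-high values, by 1.19-fold at the nearest.

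*TLR1*, the partner of *TLR2* for triacylated lipoproteins (chr4:38790677-38856817, minus strand), rested on 14 to 128 reads per library. It was between 0.179 and 0.443 CPM in the CD34-high and between 0.498 and 0.835 CPM in the CD34-low libraries, which did not overlap but lay 1.13-fold apart at the nearest values. *TLR1* and *TLR6* are paralogs whose gene models share 57 exonic bases, and 5.33% of the 50-base windows of *TLR1* transcripts also occur in *TLR6*. How the counting treated reads that match both is not given in the sources used here, so the split of reads from these stretches is uncertain.

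The endosomal receptors were at the limit of detection. *TLR3* (chr4:186069152-186088069, plus strand) had 1, 2, 2, 4, 3 and 1 reads in the CD34-high libraries and 16, 5, 7, 21, 7 and 14 reads in the CD34-low libraries, in the order above. On the CPM scale the 2 sets overlapped, with 0.0136 to 0.0510 and 0.0384 to 0.174 CPM. The highest 2 values, 0.173 and 0.174 CPM, were in a library labelled siMM-mod and a library labelled siRE-mod of Kasumi-1. *TLR9* (chr3:52221080-52226163, minus strand) had 2 to 9 reads in CD34-high and 5 to 20 reads in CD34-low libraries, with overlapping ranges on the CPM scale. Its exons share 86.3% of their bases with another annotated gene on the same strand, *AC097637.1*, to which 5 reads in all were assigned, so its count is uncertain as well.

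*MYD88* (chr3:38138478-38143022, plus strand) varied little, by 1.86-fold over the 12 libraries. Its level was 28.7, 27.4 and 28.7 CPM and then 26.1, 19.3 and 19.9 CPM in CD34-high libraries with more and with less *RUNX1T1*. In CD34-low libraries it was 24.3, 24.5 and 21.2 CPM and then 15.5, 16.7 and 16.9 CPM. The *CD34* sets overlapped, whereas within each of them the libraries with less *RUNX1T1* had the lower values, by 1.05-fold and 1.26-fold at the nearest.

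The RNA helicases followed *CD34*. *IFIH1* (chr2:162267074-162318684, minus strand) was 6.65, 6.66, 7.21, 7.39, 7.60 and 7.76 CPM in the 6 CD34-high libraries, and 35.9, 31.3, 36.5, 31.4, 34.8 and 44.4 CPM in the 6 CD34-low libraries. The nearest values were 4.04-fold apart, the widest gap of the 7 genes. Among CD34-high libraries those with less *RUNX1T1* were the higher ones by 1.02-fold at the nearest, and among CD34-low libraries the values overlapped. The lower values included that of SKNO-1 siRE-mod replicate 1 by label (7.76 CPM), and the higher ones that of Kasumi-1 siMM-mod replicate 3 by label (35.9 CPM).

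*DDX58* (chr9:32455302-32526208, minus strand) divided the same libraries. It was 3.80, 5.11, 5.39, 5.43, 4.94 and 5.81 CPM in the CD34-high and 13.1, 13.4, 16.3, 11.6, 11.4 and 15.0 CPM in the CD34-low libraries. The gap was 1.96-fold, and the values overlapped between more and less *RUNX1T1* in both *CD34* sets.

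*EIF2AK2* (chr2:37099210-37157065, minus strand) did not follow the helicases. It was 118, 135 and 123 CPM and then 85.1, 83.4 and 83.4 CPM in CD34-high libraries with more and with less *RUNX1T1*. In CD34-low libraries it was 112, 125 and 123 CPM and then 84.9, 90.9 and 99.3 CPM. The *CD34* sets overlapped nearly fully, and the libraries with less *RUNX1T1* had less *EIF2AK2* in both, 1.39-fold and 1.13-fold apart at the nearest values. Of its exonic bases 3.73% lie opposite *AC007899.1* and 0.325% opposite *GPATCH11*. Whether strand was used in counting is not given in the sources used here.

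**Figure D3:**
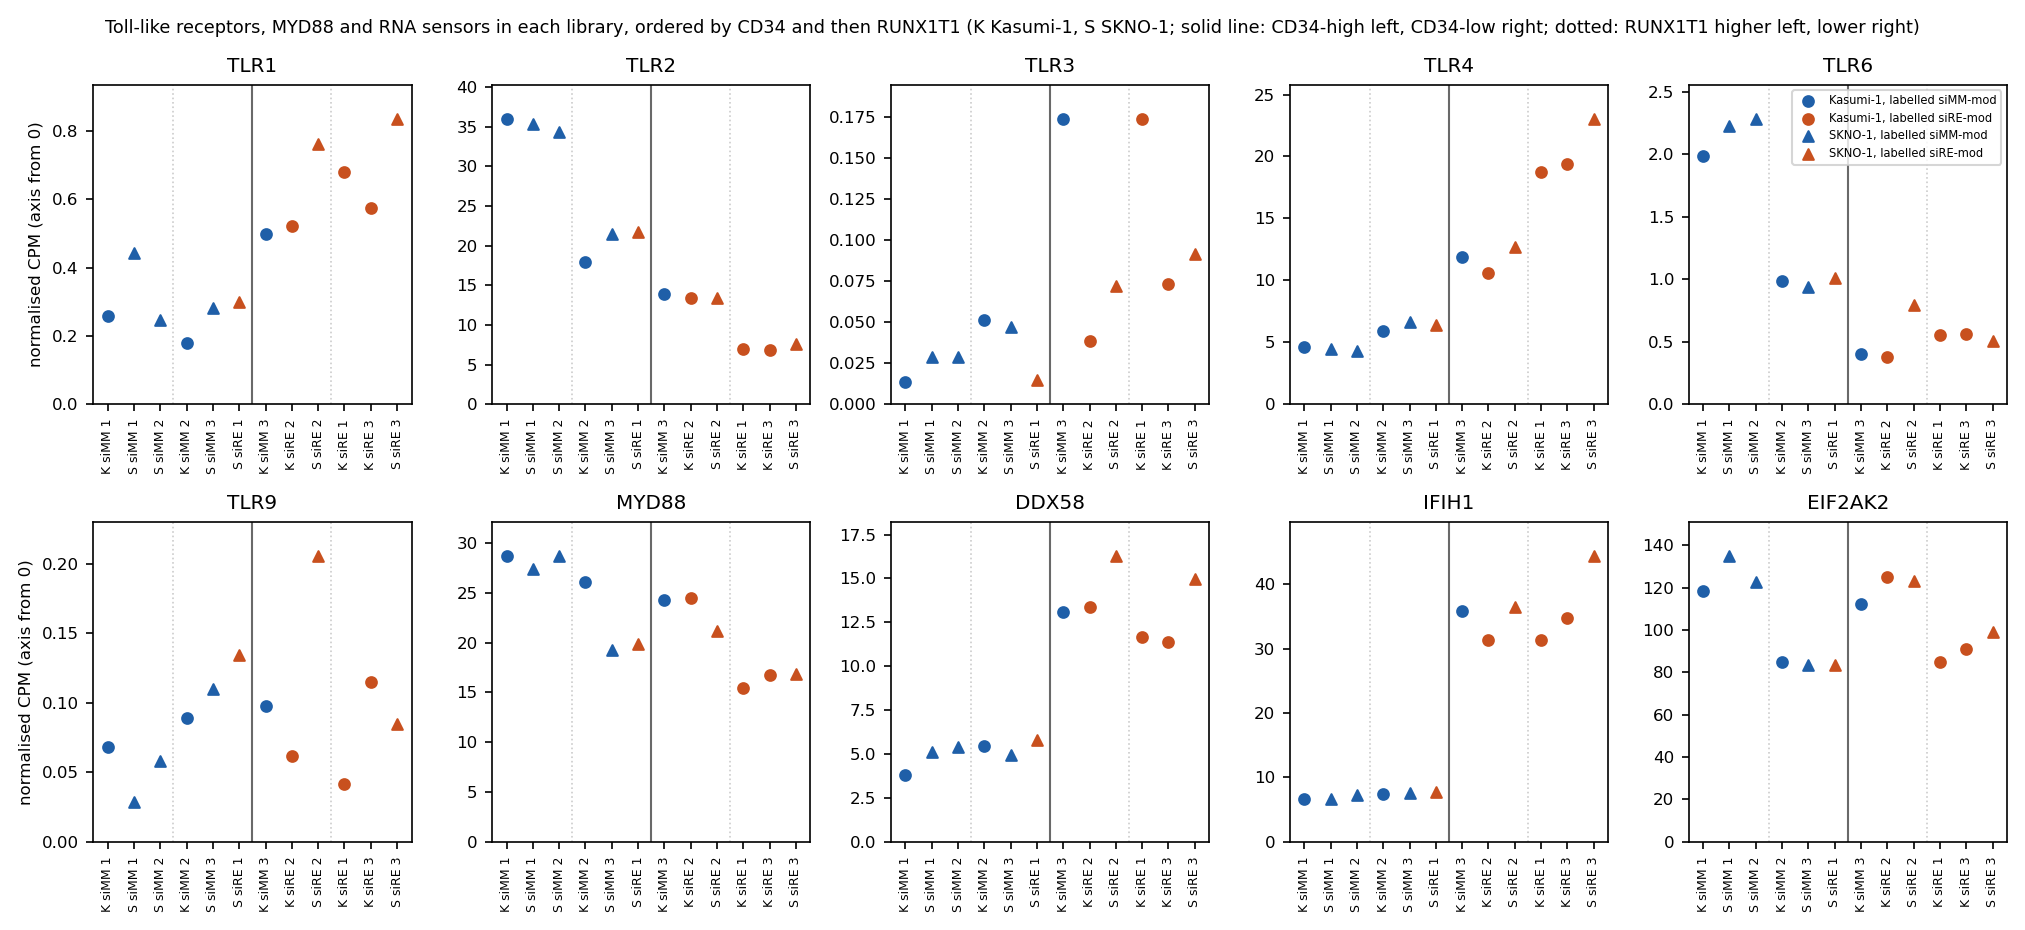
Normalised CPM (y, from 0) of each gene in the 12 libraries (x), ordered by *CD34* (solid line, CD34-high left) and within each set by *RUNX1T1* (dotted lines, more to the left), coloured by siRNA label and shaped by line label. *IFIH1* and *DDX58* step up at the solid line, by 4.04-fold and 1.96-fold between the nearest libraries, *EIF2AK2* and *MYD88* step down at the dotted lines, and *TLR2* and *TLR4* step at all 3 lines in opposite directions.

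Read against all 15863 genes past the filter, such divisions were common in these libraries. Higher values without overlap in CD34-low than in CD34-high libraries were found for 3 of the 7 genes (*TLR4*, *DDX58*, *IFIH1*) and for 17.5% of all genes. Lower values without overlap were found for 2 of the 7 (*TLR2*, *TLR6*) and for 15.6% of all genes. Within CD34-high libraries, less *RUNX1T1* went with higher values for 2 of the 7 (*TLR4*, *IFIH1*), beside 18.1% of all genes, and with lower values for 4 of the 7 (*TLR2*, *TLR6*, *MYD88*, *EIF2AK2*), beside 20.1%. Within CD34-low libraries, it went with higher values for 1 of the 7 (*TLR4*), beside 21.7%, and with lower values for 3 of the 7 (*TLR2*, *MYD88*, *EIF2AK2*), beside 21.6%. In these 3 comparisons direction and overlap kept their state under other scalings of the libraries, except for *IFIH1* within the CD34-low libraries.

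Because the RNA sensors and *MYD88* are known targets of interferon signalling, the promoters of the genes were searched for the core of the interferon-stimulated response element, GAAANNGAAA, on both strands. The windows were the RefSeq promoters of GRCh38.p14, 250 bases before to 50 bases after each start. Of the 10 genes 9 had an entry, and 4 held the motif (*TLR3*, *MYD88*, *IFIH1* and *EIF2AK2*), as did 3.57% of all 35116 promoters. *IFIH1* held 3 matches and is shown because its gap between libraries was the widest, with *MYD88* beside it as a gene with the same letters and overlapping *CD34* sets. The stretches of 30 bases read 5′ to 3′ on the strand of the gene, with the match, or its reverse complement, in capitals.
IFIH1, chr2:162318824-162318853, minus strand, match 149 bases before the start: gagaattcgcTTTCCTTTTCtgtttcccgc
IFIH1, chr2:162318818-162318847, minus strand, match 143 bases before the start: tcgctttcctTTTCTGTTTCccgcggtgtc
IFIH1, chr2:162318686-162318715, minus strand, match 11 bases before the start: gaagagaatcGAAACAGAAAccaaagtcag
MYD88, chr3:38138590-38138619, plus strand, match 51 bases before the RefSeq start: gcgcttctcgGAAAGCGAAAgccggcgggg
The first 2 matches of *IFIH1* overlap and lie on the opposite strand. The stretch of *MYD88* lies inside the gene as counted here, whose annotated start is further upstream than that of RefSeq. The matches of *TLR3* and *EIF2AK2* begin 4 and 6 bases before the start and run across it. *DDX58*, whose values divided like those of *IFIH1*, held no match in this window, and the letters of the RUNX site TGTGGT were in none of the 9 promoters and in 13.1% of all promoters. A match is a description of the letters and not a bound site, and no match says only that the letters are not in the window.

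Compared by label, *IFIH1* averaged 16.7 ± 16.7 CPM in Kasumi-1 siMM-mod and 32.5 ± 1.96 CPM in Kasumi-1 siRE-mod libraries (SD, n = 3 each). In SKNO-1 it averaged 7.16 ± 0.476 CPM and 29.6 ± 19.3 CPM in the same order. The large SDs were those of the groups whose libraries lay on both sides of the *CD34* gap. *DDX58* had the same form, with 7.45 ± 4.97 and 12.1 ± 1.09 CPM in Kasumi-1 and 5.15 ± 0.229 and 12.3 ± 5.70 CPM in SKNO-1. For *TLR2* the means were 22.6 ± 11.7 and 9.05 ± 3.71 CPM in Kasumi-1 and 30.4 ± 7.73 and 14.2 ± 7.14 CPM in SKNO-1, and for *TLR4* they were 7.46 ± 3.86 and 16.2 ± 4.91 CPM and 5.14 ± 1.34 and 14.0 ± 8.40 CPM.

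The 6 of the 10 genes that passed the filter within a line were tested between labels with edgeR's quasi-likelihood test and Benjamini-Hochberg adjustment over all genes. None of the 6 passed an adjusted p of 0.05 in either line, nor did any gene at all (0.0% of 13608 genes in Kasumi-1 and 0.0% of 13628 in SKNO-1). At an unadjusted p under 0.05 there were 2 of the 6 genes in Kasumi-1 and 4 in SKNO-1, beside 2435 and 1455 of all genes. DESeq2 called 0 of the 6 in Kasumi-1, where it called 8.55% of all genes, and 1 of the 6 in SKNO-1, where it called 2.73%. That gene was *IFIH1*, with a DESeq2 log2 fold change of 2.00 ± 0.57 (SE) and an adjusted p of 0.0224.

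In Kasumi-1 the log2 fold changes (siRE-mod over siMM-mod, ± SE) were 0.98 ± 0.68 for *IFIH1*, 0.72 ± 0.46 for *DDX58*, 1.13 ± 0.43 for *TLR4*, -1.32 ± 0.46 for *TLR2*, -0.48 ± 0.22 for *MYD88* and -0.07 ± 0.21 for *EIF2AK2*. The edgeR adjusted p was lowest for *TLR2* at 0.255. In SKNO-1 they were 2.03 ± 0.59 for *IFIH1*, 1.25 ± 0.42 for *DDX58*, 1.43 ± 0.49 for *TLR4*, -1.08 ± 0.42 for *TLR2*, -0.38 ± 0.23 for *MYD88* and -0.16 ± 0.24 for *EIF2AK2*. Here the lowest edgeR adjusted p was 0.466. All 6 genes had the same sign in both lines. With no filter but 1 read, the 4 other receptors did not pass the edgeR test either. *TLR6* was at -1.17 ± 0.54 in Kasumi-1 and -1.32 ± 0.62 in SKNO-1, *TLR1* at 0.88 ± 0.46 and 1.00 ± 0.69, *TLR3* at 0.17 ± 0.87 and 0.87 ± 1.13, and *TLR9* at -0.26 ± 0.64 and 1.10 ± 0.90 (adjusted p between 0.400 and 0.928 over the 8 values). The labelled groups did not overlap for *TLR2* in Kasumi-1 (1 of 7 genes, beside 21.5% of all genes) and for *DDX58* and *IFIH1* in SKNO-1 (2 of 7, beside 11.9%), with gaps of 1.02-fold to 1.08-fold. With the deposited CPM, which carry no TMM factor, *TLR4*, *DDX58* and *IFIH1* were higher without overlap in Kasumi-1 and *TLR2* overlapped (3 of 7, beside 34.6% of all genes). In SKNO-1 *DDX58* was then higher and *TLR2* lower without overlap and *IFIH1* overlapped (2 of 7, beside 11.0%). The difference between the lines of the change from one siRNA label to the other passed the threshold for 0 of 7 genes and 0.0% of 15863 genes, with 0 of the 7 and 106 of all genes at an unadjusted p under 0.05. DESeq2 called 0 of the 7 genes for this difference and 0.801% of all genes. For *IFIH1* that difference was 1.08 ± 0.97 (SKNO-1 minus Kasumi-1, SE).

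A single library decided these calls in each line. When Kasumi-1 siMM-mod replicate 3 (CD34-low by its values) was left out, edgeR called 4 of the 6 genes in Kasumi-1, beside 32.2% of all genes. *IFIH1* then had a log2 fold change of 2.21 ± 0.15 (SE, adjusted p = 0.000456), *TLR4* of 1.62 ± 0.32 (adjusted p = 0.0140), *DDX58* of 1.39 ± 0.23 (adjusted p = 0.00716) and *TLR2* of -1.57 ± 0.42 (adjusted p = 0.0359). When SKNO-1 siRE-mod replicate 1 (CD34-high by its values) was left out, the same 4 genes were called in SKNO-1, beside 19.3% of all genes, with 2.47 ± 0.20 for *IFIH1* (adjusted p = 0.000913), 1.76 ± 0.36 for *TLR4* (adjusted p = 0.0205), 1.58 ± 0.23 for *DDX58* (adjusted p = 0.00621) and -1.55 ± 0.36 for *TLR2* (adjusted p = 0.0316). In both cases every library labelled siMM-mod in the fit was CD34-high and every one labelled siRE-mod CD34-low, so label and *CD34* cannot be told apart in these 2 fits. *MYD88* and *EIF2AK2* were not called in any of these fits.

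**Figure D4:**
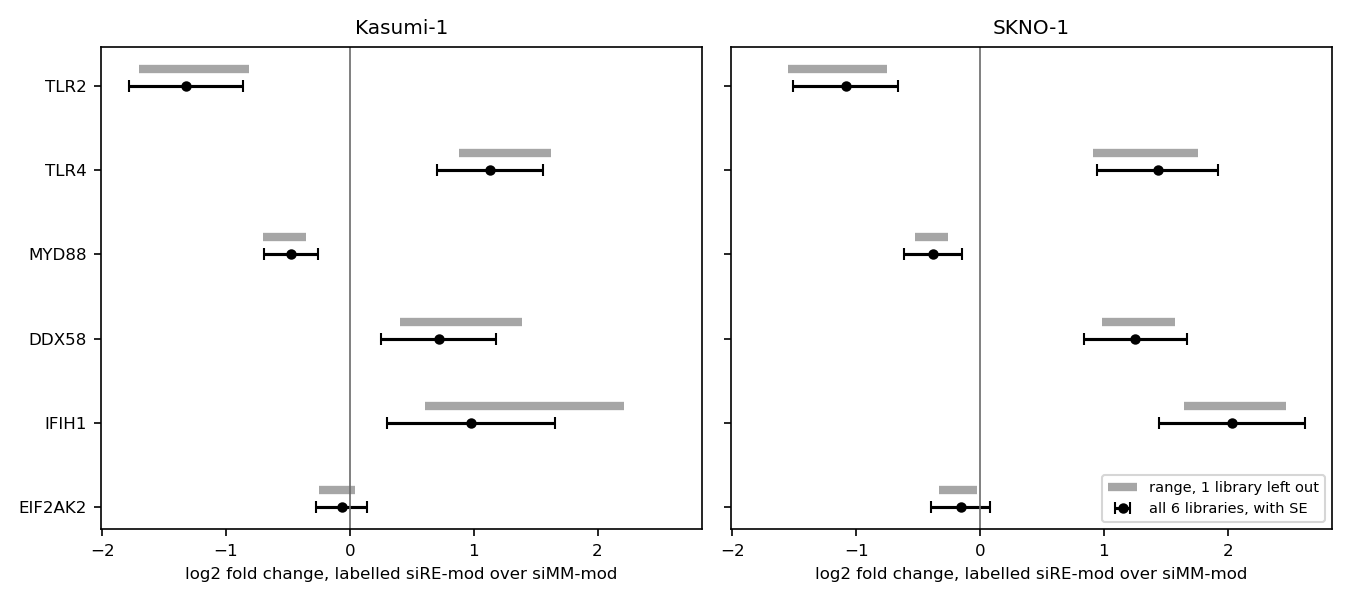
Log2 fold change between labels (x, siRE-mod over siMM-mod) of the 6 genes tested (y) in Kasumi-1 and SKNO-1, as points with SE from all 6 libraries of the line and grey bars for the range when 1 library is left out. *IFIH1* in Kasumi-1 ranges from 0.61 to 2.21, and of the 12 bars only that of *EIF2AK2* in Kasumi-1 crosses 0.

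The other genes of these pathways were 55 co-receptors, adaptors, kinases and nucleic acid sensors listed in the tables, of which 40 were tested within a line. None of the 40 passed the edgeR test in either line, with 11 in Kasumi-1 and 5 in SKNO-1 at an unadjusted p under 0.05, beside 2435 of 13608 and 1455 of 13628 of all genes. Their median log2 fold change was -0.22 in Kasumi-1, beside 0.02 for all genes, and -0.16 in SKNO-1, beside 0.03. DESeq2 called 5 of the 40 in Kasumi-1, beside 8.55% of all genes, with *TRAF3* higher and *PELI1*, *IFIT2*, *SIGIRR* and *RNF135* lower under the siRE-mod label. Its 1 call of the 40 in SKNO-1, beside 2.73% of all genes, was *IFIT5*, which was higher. These 6 are named because DESeq2 called them, after their values were seen.

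Among 42 of these genes with enough reads over the 12 libraries, 8 were higher and 10 lower without overlap in CD34-low than in CD34-high libraries, beside 17.5% and 15.6% of all genes. *IFIT5*, an interferon-induced RNA-binding protein, had the widest gap of these 42, with 0.110 to 0.421 CPM in CD34-high and 8.49 to 12.6 CPM in CD34-low libraries, 20.2-fold apart at the nearest. *PELI1*, a ubiquitin ligase that acts on IRAK kinases, had the reverse form, with 6.28 to 7.33 CPM and 0.215 to 0.449 CPM. The adaptor *SARM1*, which fell short of the read filter, was 0.896 to 1.39 CPM in CD34-high and at most 0.0325 CPM in CD34-low libraries. Its nearest values were 27.6-fold apart, and it is named after its values were seen. The related genes *IFIT1* and *IFIT2* did not go with *IFIT5*. *IFIT2* was lower in CD34-low libraries (1.24 to 3.73 against 4.74 to 7.74 CPM), and *IFIT1* was lowest, at 0.463, 0.658 and 0.861 CPM, in the CD34-low libraries with less *RUNX1T1*.

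Of the proteins that accompany the receptors, *LY86* was higher in CD34-low libraries (4.21 to 9.46 against 0.597 to 2.18 CPM), and *CNPY3* and *UNC93B1*, which help Toll-like receptors to fold and to reach endosomes, were lower (43.1 to 57.4 against 84.2 to 121 CPM and 17.4 to 27.0 against 30.9 to 63.4 CPM); for *UNC93B1* the separation did not hold under every scaling. *CD180*, the TLR4-like partner of *LY86*, did not go with it. It was 13.6, 16.3 and 16.4 CPM in the CD34-high libraries with more *RUNX1T1* and 4.91 to 5.15 CPM in those with less, and 3.56 to 5.00 and 1.93 to 2.64 CPM in the CD34-low libraries. *LY96* (MD-2), which TLR4 needs to bind lipopolysaccharide, was at most 0.130 CPM in the CD34-high libraries. In the CD34-low ones it was 0.412, 0.238 and 0.658 CPM with more and 1.21, 1.57 and 1.87 CPM with less *RUNX1T1*, as for *TLR4* in these libraries. In the CD34-high ones *LY96* overlapped between the *RUNX1T1* levels (0.0714 to 0.130 CPM with more, 0.0510 to 0.125 CPM with less), where *TLR4* did not. *LY96* is named here after its values were seen.

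*IRAK3*, an inhibitor of signalling downstream of MYD88, was 183 to 218 CPM in CD34-high libraries, 143 to 162 CPM in CD34-low libraries with more *RUNX1T1* and 66.9 to 71.8 CPM in those with less. *IRAK1*, a kinase it restrains, was lowest in the CD34-low libraries with more *RUNX1T1* (36.1 to 51.2 CPM) and 87.6 to 135 CPM in all others. *SIGIRR*, another inhibitor of these receptors, was 4.51 to 5.72 CPM in the CD34-low libraries with less *RUNX1T1* and 8.89 to 20.2 CPM elsewhere. *IFI16*, a sensor of cytosolic DNA, followed *RUNX1T1* alone, as *EIF2AK2* did. It was 151 to 187 CPM in the 6 libraries with more *RUNX1T1* and 43.1 to 71.7 CPM in the 6 with less.

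**Figure D5:**
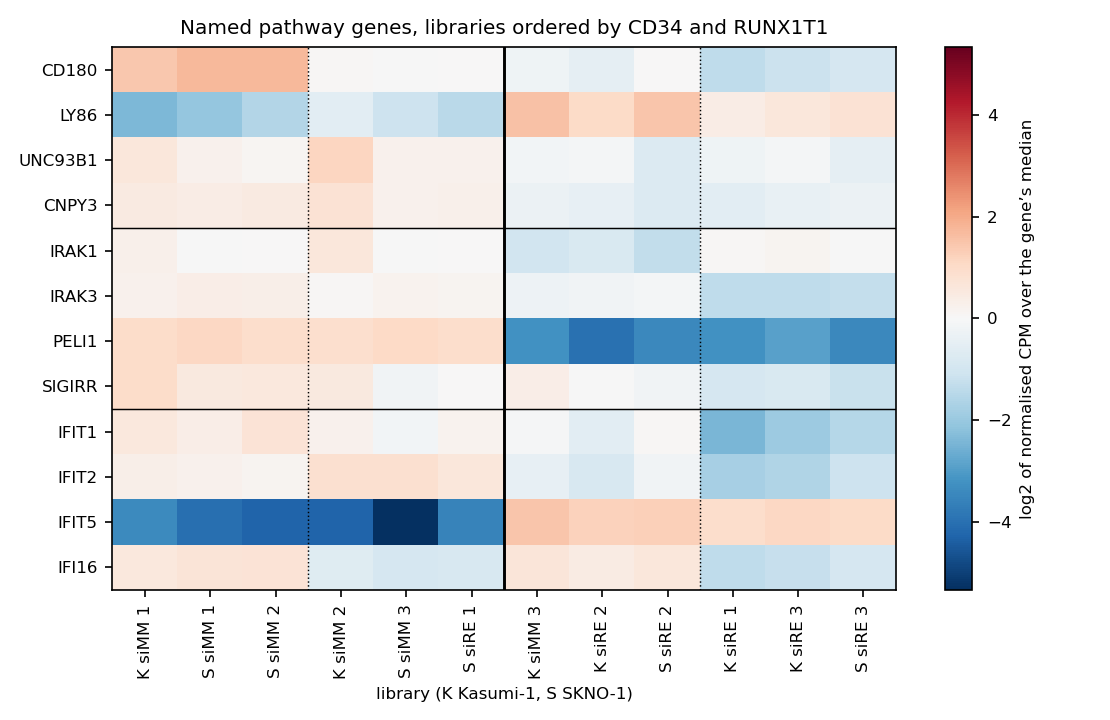
Log2 of normalised CPM over the median of the gene (colour) for the 12 pathway genes named by their spread (rows, 4 for each of 3 lists) in the 12 libraries (columns, ordered as in the plots by gene). *IFIT5* and *PELI1* change colour at the solid line between CD34-high and CD34-low libraries, and *IFI16* at the dotted lines between more and less *RUNX1T1*.

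The genes whose levels over the 12 libraries were most like those of the 7 genes, among 13959 genes with a mean of at least 1 CPM, were *EDIL3* (r = 0.988) and *B3GALNT1* (0.986) for *TLR2*, *BHLHE40* (0.992) and *PCYT1A* (0.990) for *TLR4*, and *SNED1* (0.967) and *NOC3L* (0.961) for *TLR6*. For *MYD88* they were *TRH* (0.987) and *MAPKAPK3* (0.985), for *DDX58* *PRR34-AS1* (0.993) and *ZKSCAN3* (0.989), for *IFIH1* *AC116351.1* (0.997) and *ZNF426* (0.996), and for *EIF2AK2* *ARID5B* (0.971) and *NAT10* (0.963). These are Pearson correlations of log2 CPM, given as a description. The 12 points share the 4 sets of libraries described above, and any gene that divides them in the same way has a high value.

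In the 4 libraries of Kasumi-1 cells taken from treated mice, all 10 genes were listed with 0 counts. At most 0.0335% of the reads of a library were on genes, and *ACTB*, *GAPDH* and *EEF1A1*, which every cell expresses, were at 0 too, so these values say nothing of the level of the receptors and sensors in vivo.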

How the data were processed

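RNA-seq of 12 in vitro and 4 in vivo libraries was analysed. Samples were grouped by cell line, siRNA and replicate from the labels. The authors trimmed reads with Trim Galore 0.6.5, aligned them with STAR 2.7.10a to GRCh38 and counted them over exons with Subread 1.6.5 per the submitters' processing notes, while the file headers name Rsubread 1.32.4 under R 3.5.1. The deposited in vitro tables hold raw counts, CPM and FPKM per gene, and CPM and FPKM were checked to be the same counts scaled. The deposited in vivo tables hold raw counts and were read only for the listed genes.

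For the tests, edgeR 4.0.16 under R 4.3.3 was run on genes with a sum of 600 or more reads across the fitted libraries, with TMM normalisation and the robust quasi-likelihood test of siRE-mod against siMM-mod in each line and of their interaction with line over the 12 libraries. Benjamini-Hochberg adjustment covered all genes tested (threshold 0.05). The edgeR fit was tested on simulated data in which no labelled group mixed CD34-high and CD34-low libraries. That test therefore does not bear on the absence of calls in these data. Normalised CPM used TMM factors over the 12 libraries. Libraries were divided at the largest gap of log2 *CD34* CPM and then of log2 *RUNX1T1* CPM. Alternatives were DESeq2 1.42.0, its size factors, other filters, a replicate block, 1 fit over all libraries and leaving out each library. Library pairs with the same label differed by more than counting noise (median chi-square per gene 5.08 to 181, against 0.455 for counting alone), as did every other pair (at least 1.71), so each was counted.

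The 10 genes were named by the choice of topic, and of 3 pathway lists the genes past the threshold or otherwise up to 4 with the largest spread and a mean of at least 1 CPM. For likeness, 2 genes were named for each tested gene by correlation of log2 CPM (prior count 2). Genes, lists and tests were chosen with earlier results of these data known. *OAS1* was not analysed here.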

Additional observations from a re-analysis of the deposited data

How the results depend on the processing

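Of the results recomputed without a library, 300 of 336 stayed the same, as did 177 of 185 under the other alternatives. For a fold change this meant the same direction and side of the threshold, and for a count a value within 1.5 times. For the spread of a gene over the libraries it meant a move smaller than its mean SD within labelled groups. Of the fold changes alone, 126 of 156 stayed the same without a library, while 22 changed sign and 8 passed the threshold. With DESeq2 in place of edgeR, genes called went from 0 to 1163 (Kasumi-1), 372 (SKNO-1) and 127 (their difference), pathway genes called to 5 (Kasumi-1) and 1 (SKNO-1), and *IFIH1* alone of the 6 genes was called, in SKNO-1; the cause was not tested. Leaving out single libraries gave 0 to 4250 genes, 0 to 4 of the 6 and 0 to 17 pathway genes called in Kasumi-1, and 0 to 2535, 0 to 4 and 0 to 9 in SKNO-1, with all calls in the 2 fits described in the report. The log2 fold change of *EIF2AK2* in Kasumi-1 ranged from -0.25 to 0.043.

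The difference between the lines changed sign for all 7 genes when single libraries were left out, ranging from -0.28 to 0.62 for *TLR2*, -0.23 to 0.66 for *TLR4*, -0.77 to 0.28 for *TLR6*, -0.057 to 0.33 for *MYD88*, -0.17 to 0.89 for *DDX58*, -0.20 to 1.52 for *IFIH1* and -0.27 to 0.10 for *EIF2AK2*. The median of this difference over all genes was 0.10.

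After centring on the labelled group, correlations of same-numbered libraries were -0.27 to -0.01, and none was best with its own number. Every labelled group mixed *CD34* sets or *RUNX1T1* levels, so this check cannot show whether replicate numbers pair the libraries. With the replicate number as a block, 0 genes were called in each fit. Overlap of libraries under the deposited CPM and under DESeq2 size factors was added after seeing the data. *TLR1*, *TLR3* and *TLR9* had few reads (572, 83 and 100 in all) and were tested only with looser filters.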
